A study of Drosophila melanogaster with 2 samples.

Results

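Of the 3184 Apterous peaks in the conservative set of this experiment, 470 lay at promoters that 2 or more protein-coding genes share. A peak was counted when its summit lay within 500 bp of annotated transcript starts of at least 2 different protein-coding genes. Another 780 peaks met the start of 1 protein-coding gene only and are called one-start peaks, and 1934 met none. In 432 of the 470 the nearest starts of the 2 nearest genes pointed away from each other (divergent), in 8 they pointed towards each other (convergent), in 5 they lay one behind the other on the same strand (tandem), and in 25 both genes had the same annotated start on the same strand. The 470 peaks held 458 distinct gene pairs and 942 genes, 6.74% of the 13968 protein-coding genes, and 19 peaks had 3 or more genes in reach.

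Apterous, the product of ap, is a LIM homeodomain transcription factor with known roles in dorsal wing identity, in subsets of embryonic muscles and in neurons. Chromatin was immunoprecipitated with an antibody against GFP from transgenic Drosophila melanogaster of the strain ap-GFP, which express an ap-eGFP fusion protein, and the DNA was sequenced. The embryos were whole and aged 0 to 24 h, so all embryonic cell types were mixed, including those that do not express ap. The only group has 2 samples, labelled biological replicates 1 and 2. Sonicated fragments measured 200 to 800 bp, and no control immunoprecipitation was analysed here. The lists give no read totals, so depth is unknown, and each interval below is an exact binomial 95% interval that covers the counting of peaks, genes or pairs and nothing else.

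Flies, like other animals with compact genomes, have many genes in head-to-head pairs whose starts lie close together. In such a pair the stretch between the starts is upstream of both genes, is typically depleted of nucleosomes, and separates transcripts that run in opposite directions. Promoters of broadly expressed Drosophila genes often carry the DNA replication-related element (DRE), the palindrome TATCGATA that DREF binds and whose CGATA part BEAF-32 also binds, or Motif 1, bound by M1BP, while LIM homeodomain proteins bind sites with a TAATTA core.

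The sequences that follow are the stretches between the starts, with 20 bases beyond each start, of the 3 strongest divergent pairs with a gap of 200 to 260 bp that could be shown, and of the strongest such pair with a gap under 150 bp. Pairs could be shown where the stretch had at most 300 bases, held no annotated exon between the starts and lay on a chromosome arm from which sequences were taken. These 4 were also chosen to have the summit between the starts. They are on the plus strand of dm6 (RefSeq release 6 genome), at chr3L:5139375-5139639, chr3R:15229388-15229685, chr3R:29736725-29736985 and chr3R:31616140-31616323. In each, the gene named first is transcribed leftwards and the other rightwards, and capitals mark the 21 bases centred on the peak summit.
Tcs5 and CHMP2B: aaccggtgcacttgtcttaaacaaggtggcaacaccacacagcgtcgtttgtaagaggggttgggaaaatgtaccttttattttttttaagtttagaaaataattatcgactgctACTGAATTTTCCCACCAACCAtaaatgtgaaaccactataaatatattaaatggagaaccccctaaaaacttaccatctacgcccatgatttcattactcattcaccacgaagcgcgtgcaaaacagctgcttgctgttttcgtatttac
Art3 and mRpS10: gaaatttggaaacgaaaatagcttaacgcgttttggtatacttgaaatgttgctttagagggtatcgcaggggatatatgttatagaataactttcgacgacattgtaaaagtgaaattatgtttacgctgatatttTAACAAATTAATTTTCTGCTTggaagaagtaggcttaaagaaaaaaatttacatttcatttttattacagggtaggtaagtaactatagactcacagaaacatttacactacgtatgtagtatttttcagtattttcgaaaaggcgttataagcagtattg
CG7601 and CIA30: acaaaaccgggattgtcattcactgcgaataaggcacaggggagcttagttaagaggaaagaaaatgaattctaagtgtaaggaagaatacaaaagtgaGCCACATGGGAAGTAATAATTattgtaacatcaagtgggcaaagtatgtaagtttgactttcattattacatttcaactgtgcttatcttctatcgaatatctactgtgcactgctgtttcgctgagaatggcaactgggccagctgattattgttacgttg
Mnat9 and CG1792: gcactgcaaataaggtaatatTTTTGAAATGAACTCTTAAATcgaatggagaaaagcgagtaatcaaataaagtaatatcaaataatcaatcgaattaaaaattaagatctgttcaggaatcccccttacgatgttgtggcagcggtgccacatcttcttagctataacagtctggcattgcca
A and T made up 61.5%, 69.5%, 61.7% and 64.7% of these stretches in the order shown, and 57.1%, 81%, 61.9% and 81% of the marked bases. None of the 4 held TATCGATA on either strand or the Motif 1 core GGTCACACT, and TAATTA was present in the first and the third. The summits of the first 3 lay 7, 1.5 and 21 bp from the middle of the gap, and that of Mnat9 and CG1792 lay 11 bp from the Mnat9 start.

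The strongest shared promoter peak was at Tcs5 and CHMP2B, a tRNA modification gene beside a gene for an ESCRT-III subunit of endosomal sorting. Its signal, the authors' own value per peak in the pooled list, was 1029, with 495 in replicate 1 and 552 in replicate 2. CenG1A, an Arf GAP gene, and mRpS23, a mitochondrial ribosomal protein gene, shared a peak of 994, with 523 in replicate 1 and 475 in replicate 2. Chro, which encodes the chromodomain protein Chromator, and Ssl1, a TFIIH subunit gene, shared one of 991, with 463 in replicate 1 and 523 in replicate 2. Art3, an arginine methyltransferase gene, and mRpS10 had 972 (455 and 523 in replicates 1 and 2), and CG8320 and the peroxisome gene Pex11ab 949 (449 and 517). CG7601 and CIA30, a gene of complex I assembly, followed with 935 (442 and 527). In 5 of these 6 pairs replicate 2 was higher, and over the 20 strongest in 18. Of the 20 strongest peaks of the whole conservative set, 8 were shared promoter peaks, and of the 100 strongest 27, where shared promoter peaks made up 14.8% of the set. One-start peaks supplied 36 of the 100. The 100 strongest thus held 5.74% of the shared promoter peaks, 4.62% of the one-start peaks and 1.91% of those with no start in reach.

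The next pairs in order of signal were CG5611 and the Rac-family GTPase gene Mtl at 806, mRpL23 and CG9004 at 796, tank and CG12194 at 754, CG13390 and CG17294 at 735, and Mnat9 and CG1792 at 694. Then came CG3437 and CG3552 at 663, the Elongator subunit gene Elp5 with CG1275 at 638, and Atat, the alpha-tubulin acetylase gene, with the adaptor gene Shc at 598. CG9147 and the F-box gene Fbw5 had 566, the DNA polymerase delta subunit gene PolD2 and CG13933 558, CG8360 and CG8372 548, l(2)gd1 and Reps 545, Lamtor3 and fws 516, and SLIRP2 and the kinase gene Mkk4 504. All 20 pairs were divergent. Their gaps ran from 33 bp, at Elp5 and CG1275 and at CG8320 and Pex11ab, up to 492 bp at CenG1A and mRpS23.

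Shared promoters took up little of the genome and held many of the peaks. Positions within 500 bp of starts of 2 or more protein-coding genes added up to 1.98 Mb, which held 237 conservative summits per Mb. The 13.4 Mb in reach of 1 gene held 58.3 per Mb, and the 122 Mb in reach of none held 15.8 per Mb. Candidate peaks of the pooled ranked list that met none of the thresholded lists, 135803 in all and called below-threshold peaks here, had 841 per Mb in the shared windows, 1016 per Mb in the one-gene windows and 987 per Mb elsewhere. Ground under a thresholded peak cannot hold a below-threshold peak, so part of each contrast with them, here and further on, can be built in. Of the promoter peaks, 37.6% were shared (470 of 1250, interval 34.9 to 40.4). Of the below-threshold peaks at promoters it was 10.9% (10.5 to 11.5), and of the positions within 500 bp of a start, sampled every 10 bp, 12.9%.

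The divergent arrangement made up 91.9% of the shared promoter peaks (interval 89.1 to 94.2). It made up 72.7% of the 1669 below-threshold peaks at shared promoters (70.5 to 74.8) and 78.4% of the sampled positions there. Shared starts were 25 of 470 in the conservative set, and 249 of the 1669 below threshold. Tandem starts were 5 of 470, against 124 of the 1669.

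Read from the genes, 462 of the 2616 divergent pairs in the annotation whose starts lie at most 1000 bp apart had a conservative summit within 500 bp of both starts, which is 17.7% (interval 16.2 to 19.2). Of 104 convergent pairs 16.3% had one (9.82 to 24.9), of 440 tandem pairs 0.909% (0.248 to 2.31), and of 360 pairs with a shared start 16.9% (13.2 to 21.2). Pairs here include every combination at loci with 3 or more genes, so a peak can count for several pairs. The intervals take pairs as independent and are too narrow where pairs share a peak. The 17 convergent and 61 shared-start pairs with a peak compare with 8 and 25 member peaks of these arrangements. Of the 7983 protein-coding genes with no other gene's start within 1000 bp, 6.74% had a conservative summit within 500 bp (6.2 to 7.31).

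The share of divergent pairs with a peak changed with the gap between the starts. It was 15.6% at gaps under 100 bp (65 of 418, interval 12.2 to 19.4) and 11.4% at 100 to 199 bp (40 of 350, 8.29 to 15.2). At 200 to 299 bp it was 31.1% (165 of 531, 27.2 to 35.2), and at 300 to 399 bp 25.2% (99 of 393, 21 to 29.8). It was 18.5% at 400 to 499 bp and 10.3% at 500 to 749 bp. Wider gaps leave a shorter stretch within 500 bp of both starts, so part of the decline is built into the rule. Per 100 kb of that stretch, 16.5 pairs had a peak at gaps under 100 bp, 13.4 at 100 to 199 bp, 41.6 at 200 to 299 bp, 38.4 at 300 to 399 bp, 33.4 at 400 to 499 bp and 26.3 at 500 to 749 bp. A pair takes its narrowest gap over all annotated starts, while a member peak takes the starts nearest its summit. Over the same ranges there were 35, 33, 163, 94, 55 and 50 divergent member peaks. At gaps under 100 bp the share and the rate thus count many more pairs than peaks.

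**Figure D1:**
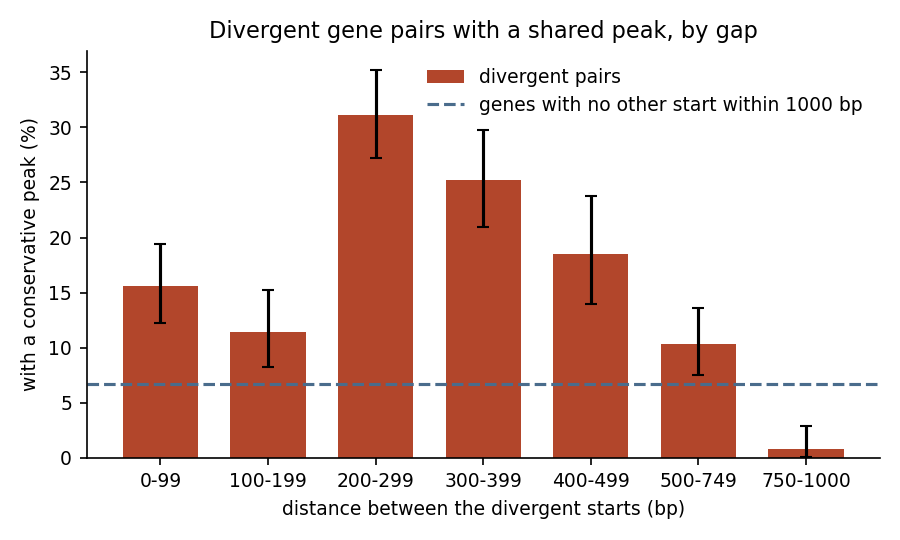
Percentage of divergent pairs of protein-coding genes with a conservative peak within 500 bp of both starts, by the distance between the starts in bp; error bars are exact binomial 95% intervals and the dashed line is the percentage of genes with no other start within 1000 bp that have a peak. The bar for gaps of 200 to 299 bp is highest at 31.1%, and the dashed line stands at 6.74%. Bars count pairs, each at its narrowest gap, and the 65 pairs with a peak at gaps under 100 bp compare with 35 divergent member peaks.

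Among the 432 divergent members the median gap was 290 bp, with quartiles of 230 and 399 bp. The narrowest gap was 2 bp, between dpa, an MCM replication helicase gene, and the unconventional myosin gene didum. The signal there was 127 in the pool, 56.8 in replicate 1 and 72.3 in replicate 2, and the summit lay 106 bp from the nearer start. The widest gap was 948 bp, between CG13058 and CG13038, where the pooled signal was 107 (replicate 1 at 59, replicate 2 at 47).

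Summits of divergent pairs lay mostly between the starts, upstream of both genes. This held for 369 of 432, or 85.4% (interval 81.7 to 88.6). At gaps of 500 bp or more the rule itself places the summit there. Over the gaps under 500 bp it was 317 of 380, 83.4% (79.3 to 87), where the space between the starts made up 42% of the stretch that the rule allows. Below-threshold peaks at divergent pairs with gaps under 500 bp had 39.7% between the starts (425 of 1070, 36.8 to 42.7), where that space made up 34% of the allowed stretch. These exclude candidates that overlap a thresholded peak, so part of this contrast can be built in.

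At gaps of 200 to 299 bp the summits gathered at the middle of the pair. Of these 163 peaks 151 had the summit between the starts, 92.6% (interval 87.5 to 96.1), and the median distance of the summit to the midpoint of the pair was 28.5 bp. Below-threshold summits at such gaps had a median distance to the midpoint of 168 bp. Where a thresholded peak already covered the middle, a below-threshold peak could not lie there, so part of this contrast can be built in. As the gap widened the distance to the midpoint grew, with medians of 69.2 bp at 300 to 399 bp, 89 bp at 400 to 499 bp and 120 bp at 500 to 749 bp. Below-threshold summits had medians of 137, 162 and 116 bp at these gaps, and at 500 to 749 bp the rule confines both kinds. The distance to the nearer start grew less, with medians of 96, 111, 140 and 166 bp over the same 4 ranges of gap starting at 200 bp. For a summit between the starts, these distances add up to the distance from the midpoint to either start, so the trends are tied. Among the one-start peaks, 643 of 780 summits lay upstream of the start, at a median of 185 bp.

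**Figure D2:**
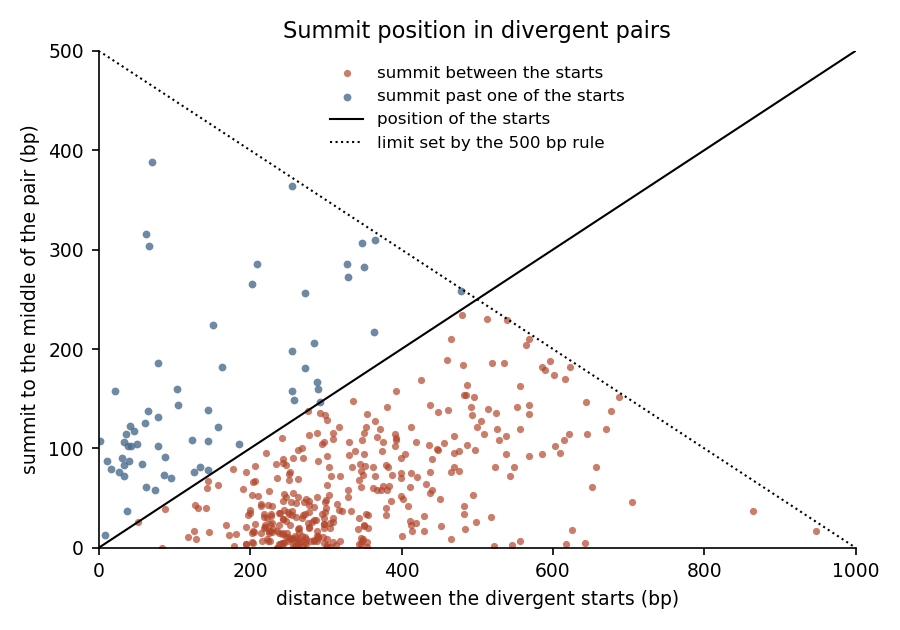
Distance of the summit to the middle of the pair against the distance between the starts, both in bp, for the 432 divergent members; points under the solid line have the summit between the starts, points above it have the summit past one of the starts, and the dotted line is the limit that the 500 bp rule sets. Points crowd at the foot of the plot at gaps of 200 to 299 bp. At gaps under 100 bp nearly all lie above the solid line, where most of the allowed stretch is.

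In pairs with narrow gaps few summits lay between the starts, where little of the allowed stretch lies. At gaps under 100 bp, 3 of 35 summits lay between the starts, 8.57% (interval 1.8 to 23.1), and that space made up 5.59% of the allowed stretch. Below-threshold peaks at such gaps had a like share, 8.59% (22 of 256, 5.46 to 12.7). The other 32 conservative summits lay past one of the starts at a median of 80 bp. These summits fell on DNA rich in A and T: the 51 bases centred on the summit were 70.5 ± 9.95% A or T (SD, n = 32 peaks), against 53.8 ± 7.94% for the 51 bases at the middle of the same pairs, and the summit was the richer in 28 of 32. Examples were mRpL23 and CG9004, with a gap of 50 bp and the summit 79 bp past the mRpL23 start in its 5′ UTR (350 in replicate 1 and 441 in replicate 2). Another was E(z), the Polycomb methyltransferase gene, with Cnep1r2, with a gap of 16 bp and the summit 71 bp from the nearer start (signal 209, with 110 in replicate 1 and 98.9 in replicate 2). Over all gaps, 63 divergent summits lay past a start, 50 of them in a 5′ UTR, 12 in an intron and 1 in a coding exon.

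The middle of the pair was itself rich in A and T. In divergent pairs with gaps of 200 to 299 bp, the central 51 bases were 76.2 ± 7.52% A or T with a peak (SD, n = 163 peaks) and 71.7 ± 10.8% without one (SD, n = 366 pairs). The 51 bases around the starts of the same pairs were 55.5 ± 6.49% A or T with a peak and 56.8 ± 6.38% without. At gaps under 100 bp the central 51 bases were 54.3 ± 8.07% A or T with a peak and 55.3 ± 9.55% without. The difference between pairs with and without a peak was smaller than 1 SD in each of these comparisons. That SD is the spread over single peaks or pairs, so it does not say whether the means differ, which was not tested.

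**Figure D3:**
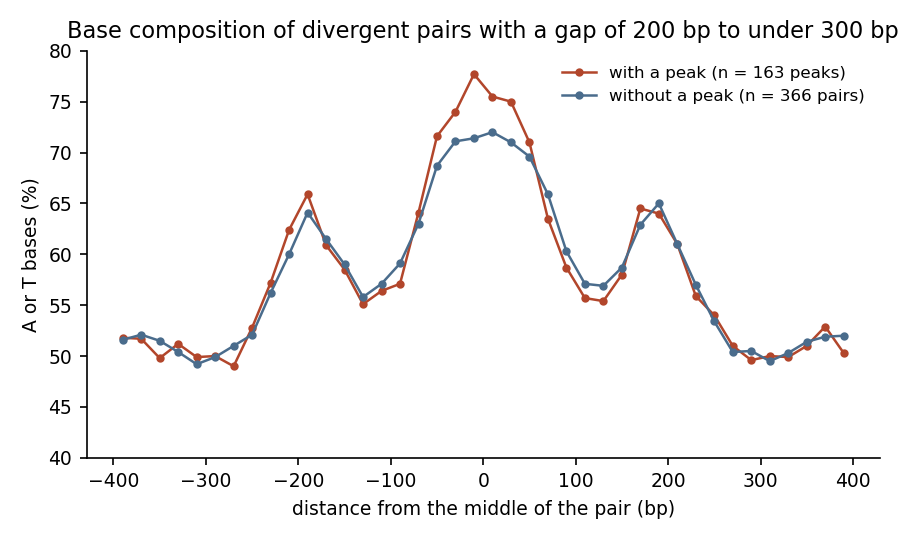
Percentage of A or T bases in bins of 20 bp by distance from the middle of divergent pairs with a gap of 200 to 299 bp, for 163 peaks and for 366 pairs with no conservative peak (axis cut at 40 and 80%). Both curves are highest within 60 bp of the middle, reaching 77.7% in the pairs with a peak, and both drop near 130 bp, where the starts lie.

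Sequence around the summits was described for a few motifs, on both strands and within 50 bp of the summit. TAATTA was present at 15.3% of the divergent summits (66 of 432, interval 12 to 19), at 8.72% of the one-start summits (6.83 to 10.9), at 10.3% of the middles of divergent pairs without a peak (9.06 to 11.7), and at 2.31% of points 1000 bp to the right of the divergent summits (1.12 to 4.22). GC content moved with this. It averaged 30.2 ± 9.31% at divergent summits, 34.1 ± 10.8% at one-start summits, 34.2 ± 10.5% at the middles without a peak and 47.9 ± 9.87% at the shifted points (SD over regions), and its part in the TAATTA shares was not tested. The middles were not matched to the members by gap. Of the 2153 pairs without a peak 352 had gaps under 100 bp, where a window at the middle reaches both starts, against 35 of the 432 divergent members. TATAAA, which is also made of A and T only, was present at 30.8% of the divergent summits and 23.3% of the one-start summits.

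The CGATA core was present at 14.6% of the divergent summits (63 of 432, interval 11.4 to 18.3) and 14.4% of the one-start summits (12 to 17). At the middles of divergent pairs without a peak, which lie at other distances from the starts than the summits, it was present at 25.3% (23.5 to 27.2). Within 100 bp it was present at 37.7% of the divergent summits (33.1 to 42.5), 26.8% of the one-start summits (23.7 to 30.1) and 42.2% of the middles without a peak (40.1 to 44.3). The full TATCGATA, which contains CGATA, was present at 2.78% of divergent summits within 50 bp, and at 9.72% within 100 bp (7.1 to 12.9), against 2.69% of one-start summits within 100 bp (1.67 to 4.09) and 8.87% of middles without a peak (7.7 to 10.2). Over the whole stretch between the starts plus 50 bp at either end, 23.6% of the divergent pairs with a peak held TATCGATA (102 of 432, 19.7 to 27.9) and 21.5% of those without (462 of 2153, 19.7 to 23.3). For GGTCACACT the shares were 14.8% with a peak (11.6 to 18.5) and 15.3% without (13.8 to 16.9), and for TAATTA 35.9% with a peak (31.4 to 40.6) and 31.4% without (29.5 to 33.5). These groups were not matched by gap, and a longer stretch has more room for a motif. At gaps under 100 bp TATCGATA was in 8.57% with a peak (n = 35) and 25% without (n = 352). GGTCACACT was in 5.71% and 15.1% there, and TAATTA in 8.57% and 6.53%. At 200 to 299 bp the shares were 23.9% and 18.3% for TATCGATA, 17.2% and 18.3% for GGTCACACT, and 32.5% and 26.8% for TAATTA.

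The motifs sat at different distances from the starts. TATCGATA was centred 0 to 49 bp upstream at 7.64% of the 864 starts of divergent members and 100 to 149 bp upstream at 0.81%. GGTCACACT was centred within 50 bp downstream of 4.63% of the starts, 0 to 49 bp upstream of 3.12%, and 100 to 149 bp upstream of 0.231%. TAATTA had the opposite layout, with 1.85% of starts at 0 to 49 bp and 9.61% at 100 to 149 bp upstream. TATAAA, also of A and T only, shared it, with 6.83% and 19.9% in the same bins. The divergent summits lay at a median of 104 bp from the nearer start, and a link to either motif was not tested. At starts of divergent pairs without a peak the motifs had the same layout, with TATCGATA at 8.22% in the nearest upstream bin and TAATTA at 6.62% at 100 to 149 bp. The median signal of the divergent members with TATCGATA was 118 (n = 102), against 113 without it (n = 330). It was 99.2 with GGTCACACT (n = 64), against 119 without (n = 368). With TAATTA it was 107 (n = 155, with 50.1 in replicate 1 and 59.3 in replicate 2), against 119 without (n = 277, with 55.6 in replicate 1 and 64.9 in replicate 2). The quartile ranges overlapped in all 3 comparisons.

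Sequences show where these motifs lie in 3 divergent members: among those that could be shown under the same limits, the strongest with more than 1 TATCGATA and the strongest with GGTCACACT, and also the pair of the DREF gene itself. They lie at chr3R:26059247-26059516, chr3R:11882514-11882810 and chr2L:9967209-9967333 on the plus strand of dm6 (RefSeq release 6 genome). Each again runs 20 bases beyond both starts. Capitals mark TATCGATA, GGTCACACT and TAATTA in the first 2, and CGATA in the last.
RpL34a and Trmt61: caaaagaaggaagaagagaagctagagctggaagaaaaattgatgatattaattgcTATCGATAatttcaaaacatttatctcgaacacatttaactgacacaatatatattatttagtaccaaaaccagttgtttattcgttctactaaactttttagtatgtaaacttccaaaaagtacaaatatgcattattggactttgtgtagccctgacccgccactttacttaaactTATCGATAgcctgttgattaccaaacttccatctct
CG6962 and CG31368: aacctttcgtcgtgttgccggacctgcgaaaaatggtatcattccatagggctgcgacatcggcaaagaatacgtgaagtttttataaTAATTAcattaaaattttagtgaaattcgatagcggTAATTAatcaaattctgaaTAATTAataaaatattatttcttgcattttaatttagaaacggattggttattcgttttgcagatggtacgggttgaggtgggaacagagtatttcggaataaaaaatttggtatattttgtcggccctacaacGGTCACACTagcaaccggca
Dref and RpL13: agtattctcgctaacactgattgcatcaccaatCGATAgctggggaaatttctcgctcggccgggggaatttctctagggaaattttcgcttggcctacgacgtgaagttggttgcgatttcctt
The pooled signal at RpL34a and Trmt61 was 98.9 (54.9 and 48.7 in replicates 1 and 2), and the summit is base 120 of 270, between the 2 copies of TATCGATA. The CG6962 and CG31368 peak had 131, and its summit, base 112 of 297, lies among the 3 copies of TAATTA and far from GGTCACACT at the right end. The Dref and RpL13 peak had 86.6 (51.6 in replicate 1 and 34.7 in replicate 2) and its summit is base 63 of 125, at equal distances of 42 bp from both starts.

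Gene function was described with 22 lists of genes, read against the 17.8% of the 4960 genes in divergent pairs that had a shared promoter peak. Of the 22 lists the cytoplasmic ribosomal protein genes had the highest share: 25 of 92 had a shared promoter peak, and of the 55 in divergent pairs it was 45.5% (interval 32 to 59.4). With one-start peaks included, 48 of the 92 had a promoter peak, so peaks at these genes were not confined to shared promoters. The pairs named next have shared promoter peaks. The strongest were RpS27 with the nucleoporin gene Nup37, at 323 (133 in replicate 1 and 185 in replicate 2), RpL7 with Ripalpha, at 307 (147 and 158), and RpL32 with CG7943, at 270 (116 and 158). All 3 were higher in replicate 2. RpL13 and Dref was another such pair, and so was RpL28 with the translation initiation gene eIF1, at 180 (70.3 and 105).

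At these pairs the summit lay close to the ribosomal protein gene's start. Of the 26 divergent peaks with a cytoplasmic ribosomal protein gene in the pair, 24 had that gene's start as the nearer one, 92.3% (interval 74.9 to 99.1). The exceptions were CG17271 with RpS20, and RpL13 with Dref, where both starts were equally near. The median distance was 41 bp to the ribosomal protein start and 238 bp to the partner's start. The summit lay within 50 bp of the ribosomal protein start in 18 of 26, for example 5 bp at RpS27, 1 bp at RpS21, 6 bp at RpS19a and 20 bp at RpL14 and at RpLP0. It lay within 50 bp of the partner's start in 1, at RpL13 and Dref. In the 406 divergent peaks without such a gene, 13.5% had the nearer start within 50 bp (10.4 to 17.3). The one-start peaks showed the same contrast: 19 of 24 at ribosomal protein genes lay within 50 bp, 79.2% (57.8 to 92.9), against 7.54% at other genes (57 of 756, 5.76 to 9.66).

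Mitochondrial ribosomal protein genes did not have this layout. Of 9 divergent peaks with such a gene in the pair 2 had its start as the nearer one, and none lay within 50 bp of it, with a median distance of 141 bp. These 9 genes, out of 58 in divergent pairs, 15.5% (interval 7.35 to 27.4), included 3 of the 8 strongest shared promoter peaks, at mRpS23, mRpS10 and mRpL23, and their median signal was 364, against 118 over all shared promoter peaks.

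**Figure D4:**
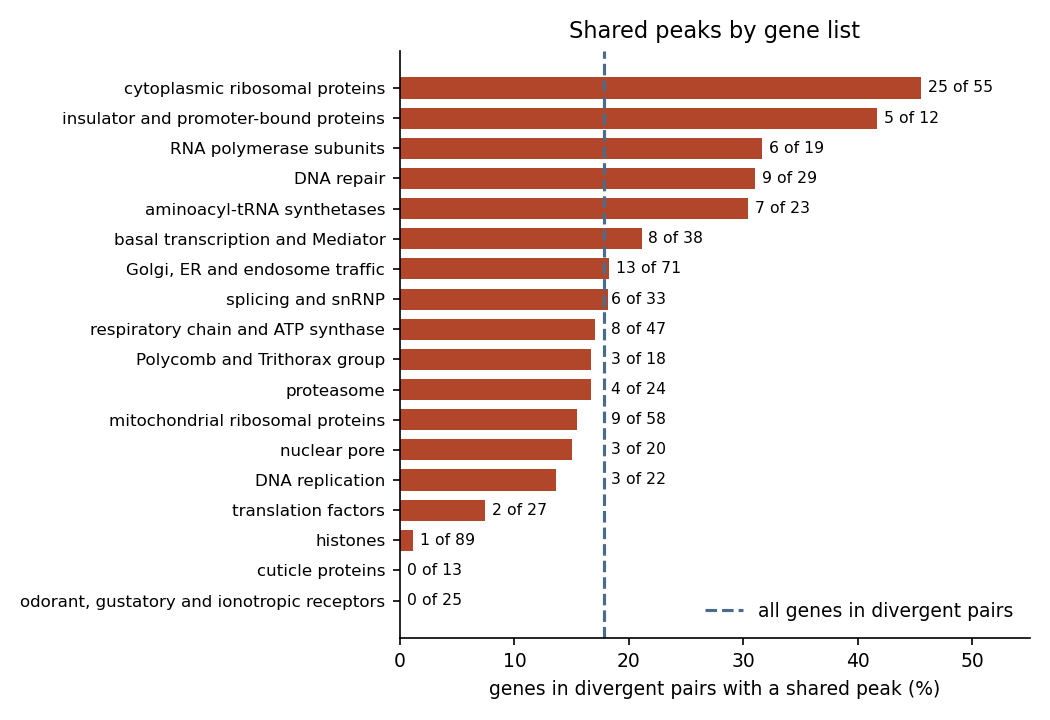
Percentage of the genes in divergent pairs that had a shared promoter peak, for each list with at least 10 genes in divergent pairs; the count stands beside each bar and the dashed line is the percentage over all genes in divergent pairs. The cytoplasmic ribosomal protein genes have the longest bar at 45.5%, and the dashed line stands at 17.8%.

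The shares of the other lists of broadly used genes lay on both sides of the background, with wide intervals. Of the RNA polymerase subunit genes in divergent pairs 6 of 19 had a shared promoter peak, 31.6% (interval 12.6 to 56.6), led by Polr2B with 140up at 227. Of the DNA repair genes it was 9 of 29, 31% (15.3 to 50.8), led by mei-41, the ATR kinase gene, with TH1 at 262 and by the Ku70 gene Irbp with mgr at 217. Of the aminoacyl-tRNA synthetase genes it was 7 of 23, 30.4% (13.2 to 52.9), with GluProRS and the clathrin adaptor gene AP-1sigma at 299 and IleRS with Hem at 227. Of the basal transcription factor and Mediator genes it was 8 of 38, 21.1% (9.55 to 37.3), with Taf5 and the peroxin gene Pex6 at 255. Of the traffic genes of Golgi, ER and endosome it was 13 of 71, 18.3% (10.1 to 29.3), led by alphaCOP, a COPI coat subunit gene, with CG13919 at 432. For the splicing genes it was 6 of 33 (18.2%), for the respiratory chain 8 of 47 (17%), for the proteasome 4 of 24 (16.7%) and for the nuclear pore 3 of 20 (15%). For DNA replication it was 3 of 22 (13.6%), in a list that does not hold PolD2 and dpa, and for the translation factors 2 of 27, 7.41% (0.91 to 24.3). Mitochondrial import had 1 of 5, Tom7, at 60.1. Mcm2 and RPA1, both replication genes, formed the only member whose 2 nearest genes stood in the same list, at 107 (55.9 in replicate 1 and 52.7 in replicate 2).

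Genes for proteins that bind promoters and insulators were members themselves. Of 12 such genes in divergent pairs 5 had a shared promoter peak, 41.7% (interval 15.2 to 72.3). Besides Chro and Dref these were Cp190 with CG4338 at 251 (95.9 in replicate 1 and 151 in replicate 2), the Motif 1 binding protein gene M1BP with CG8202 at 88.1 (28.6 and 49.8), and su(Hw) with the RNA polymerase II subunit gene Polr2I at 53.4 (32.7 and 31.6). Of the Polycomb and Trithorax group genes in divergent pairs 3 of 18 had one: brm, the ATPase gene of the BAP remodelling complex, with Arl1 at 461, E(z) at 209, and Su(z)12 with Pfdn6 at 108.

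Lists of developmental and tissue-restricted genes had few members, and so did the list of histone genes. None of the 9 LIM homeodomain and cofactor genes and none of the 8 Hox genes had a shared promoter peak, and ap itself was not a member. Only 3 of the LIM list and 0 of the Hox genes are in divergent pairs at all. The 179 chemoreceptor and the 139 cuticle protein genes had none either, with 25 and 13 of them in divergent pairs (upper interval bounds 13.7% and 24.7%). Of the 117 histone genes, 89 of which are in divergent pairs, only the variant gene His2Av with ball had one, at 103 (34.3 in replicate 1 and 75.1 in replicate 2). Of 12 genes placed downstream of ap by genetics 1 was in reach, the integrin gene mew, as the third gene at a peak of comt and CG15742 with a signal of 95.3. Gene symbols that are only a CG number made up 31.5% of the 942 member genes, 34.9% of all genes in divergent pairs and 43.7% of all protein-coding genes.

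Convergent, tandem and shared starts were few. The strongest convergent member joined Adck1, a kinase-like gene of the aarF family, with CG4741 at 390 (217 in replicate 1 and 176 in replicate 2). CG31808 with the cytochrome c gene Cyt-c-d followed at 389 (191 and 201), and CG4658 with CG5846 at 292 (160 and 134). The tandem members were led by Ufsp1 with Cyp6u1 at 317 (153 and 161), the pre-mod(mdg4) locus at 203 (116 and 85.6) and the microtubule gene chb with the asparagine synthetase gene AsnS at 190 (90.5 and 103). At the pre-mod(mdg4) locus 10 annotated genes have a start in reach, all named for that locus, and the next most crowded peak, at PIG-M and NC2alpha, had 5 genes in reach and a signal of 302 (149 and 163).

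The shared starts belong to genes annotated on one transcript start, such as Sesn, the Sestrin stress gene, with CG46429 at 431 (237 in replicate 1 and 222 in replicate 2), CG8788 with CG44286 at 383 (176 and 222), and CG45064 with CG45065 at 239 (118 and 121). sloth1 and sloth2, which encode 2 mitochondrial micropeptides, had 144 (68.6 and 78.8). Summits of the 25 lay at a median of 158 bp from the shared start, with quartiles of 119 and 238 bp. Whether such genes are separate promoters is a matter of the annotation: with genes of identical start counted as 1 gene, the members were 452 and 97.8% of them divergent.

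The median signal differed between the arrangements, but all except the divergent one had few peaks. It was 115 for divergent, 167 for convergent, 190 for tandem and 131 for shared-start members, with 8, 5 and 25 peaks in the last 3. The convergent members had medians of 87.7 in replicate 1 and 82.9 in replicate 2, and the tandem members 90.5 and 85.6, against 53.1 and 62.6 for the divergent members. Over all shared promoter peaks it was 118 (quartiles 79.5 and 192), against 107 for one-start peaks, a ratio of 1.11. That ratio was 1.05 on the signals of replicate 1 and 1.18 on those of replicate 2, and it was 0.988 in the stronger part of the conservative set and 0.999 in replicate 1's own thresholded list, so the direction did not hold. Among divergent members the median signal was 144 at gaps under 100 bp, 149 at 100 to 199 bp, 122 at 200 to 299 bp, 104 at 300 to 399 bp, 111 at 400 to 499 bp and 93.2 at 500 to 749 bp, with quartiles that overlapped throughout. Replicate 1 and replicate 2 had 65.1 and 82.3 at gaps under 100 bp, and 46.7 and 49 at 500 to 749 bp.

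The replicates gave similar values for the shared promoter peaks. The conservative list was thresholded by IDR, a measure of agreement between replicates, so agreement among its peaks is partly built in. Over all conservative peaks the log2 ratio of replicate 2 to replicate 1 averaged 0.03 ± 0.43 (SD, n = 3134 peaks). Of the 459 that met a peak in both replicates' ranked lists, 439 were within a factor of 2 of each other (95.6%). Replicate 2 was higher at 294, and the log2 ratio of replicate 2 to replicate 1 averaged 0.16 ± 0.45 (SD, n = 459 peaks). For one-start peaks replicate 2 was higher at 407 of 772, with a log2 ratio of 0.01 ± 0.42. This difference between the peak groups was not tested. The largest difference was at puml and TTLL12, with 26.1 in replicate 1 and 78.3 in replicate 2. Both replicates' own thresholded lists held 276 of the 470 (58.7%, interval 54.1 to 63.2), 29 were only in replicate 1's, 91 only in replicate 2's and 74 in neither. The share in both lists was near that of the one-start peaks, 441 of 780 (56.5%, 53 to 60.1). Over all conservative peaks it was 1531 of 3184 (48.1%, 46.3 to 49.8).

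**Figure D5:**
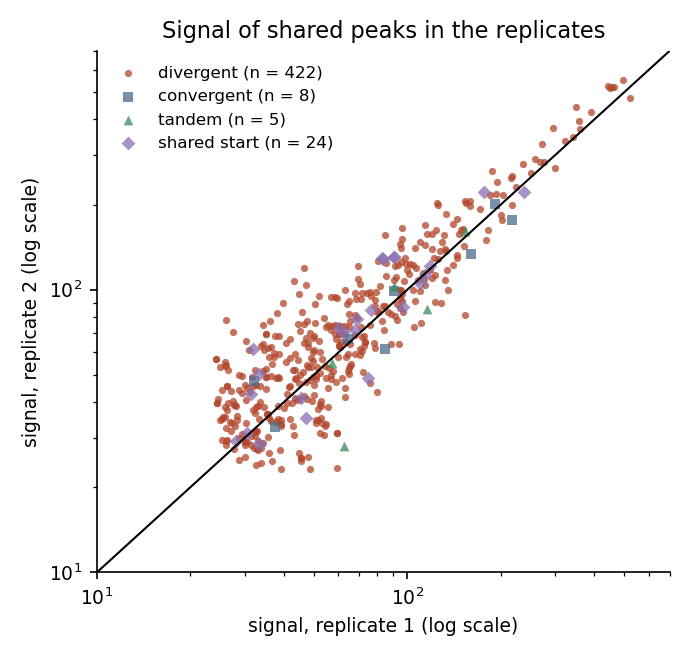
Signal of the shared promoter peaks in replicate 2 against replicate 1, on log axes, for the 459 members with a peak in both replicates' ranked lists, by arrangement of the starts; the line marks equal signals. Most points lie near the line, 294 of them above it.

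The weakest members were secondary summits. For 12 gene pairs there were 2 member peaks, and 3 members had a pooled signal under 10: RpL3 with CG6693 at 6.12, CG42353 with CG42354 at 6.39 and CG16787 with alpha-Catr at 8.16. Each lay beside a stronger member of the same pair, at 82.3, 215 and 85.5, and the replicate values found for both were those of the same replicate peak. By chromosome arm, 16% of the divergent pairs on 2L had a peak, 15.8% on 2R, 21.4% on 3L and 20.8% on 3R, against 12.5% on X (49 of 392, interval 9.39 to 16.2). None of the 11 divergent pairs on chromosome 4 had one. At the 500 bp limit, the farther starts of the last members inside lay 493 to 499 bp from the summit, with signals between 73.6 and 218, as at app and CG32100. Those of the first peaks outside lay 507 to 527 bp away, with signals between 53.4 and 82.8, as at vig2 and TTLL5.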

How the data were processed

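The 2 biological replicates of the single group were profiled by ChIP-seq, and the authors deposited peak lists on dm6, per the labels. The signal per peak is the authors' deposited value in each list, with scaling, aligner and caller not given in the sources used here. In all 7 lists were used, namely the conservative and the less strict thresholded lists from pooled replicates, a pooled ranked list, and each replicate's ranked and thresholded lists. A replicate's signal at a peak is the highest among its own ranked peaks that overlap it by at least 1 bp, and 11 members lacked one in a replicate. Starts were all transcript starts of 13968 protein-coding genes in Ensembl release 115; sequence came from the RefSeq release 6 genome, whose assembly the annotation names. Where more than 2 genes were in reach, the 2 nearest starts set the pair. Of the conservative peaks 17 lay on other scaffolds and were left out, and 361 of the 470 members have the summit at the exact middle of the peak, so positions are approximate.

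No test was run: with 1 group of 2 samples there is no contrast between samples, and shares carry exact (Clopper-Pearson) intervals. Pairs named are the 20 strongest, the strongest of each arrangement and list, and those at the extremes of gap, gene number and replicate difference; those added by distance to a ribosomal protein start, sloth1 and RpL28 were chosen after their values were seen. The members and lists were chosen with earlier results of these data known. Scripts were tested on simulated data. Python 3.11.15, numpy 2.4.6, pandas 2.3.3, scipy 1.17.1 and matplotlib 3.10.9 were used.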

Additional observations from a re-analysis of the deposited data

How the results depend on the processing

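Of 76 values under alternatives, 56 stayed within the 95% interval of the value above (for counts within 1.5 times, for the gap and the signal ratio within 1 SD of the replicates' own lists) and 20 moved. With 300 bp in place of 500 bp the shared part of promoter peaks was 34.5%, the median gap of divergent pairs 263 bp and the signal ratio 1.16. With 1000 bp the divergent part was 88.3% and the median gap 319 bp. In the stronger part of the conservative peaks by signal there were 297 members, a median gap of 278 bp, a signal ratio of 0.988 and 11.6% of divergent pairs with a peak. With only the outermost 5′ end of each gene the shared part was 42.8%, the median gap 276 bp and the share of summits between the starts 78.1%. With genes of identical start counted as 1 the divergent part was 97.8%. Signals of replicate 1 gave a ratio of 1.05 and those of replicate 2 one of 1.18. Within 100 bp of the summit the CGATA core was present at 37.7% of divergent peaks. The cause of these moves was not tested, beside the shorter list, the wider window and the changed rule themselves.

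With each replicate left out in turn, members ranged between 329 and 394, the shared part between 37.7 and 39.8%, the divergent part between 90 and 92.4%, the median gap between 284 and 290 bp, summits between the starts between 84.5 and 85.2%, the signal ratio between 0.999 and 1.06, divergent pairs with a peak between 12.3 and 15%, and CGATA between 15.9 and 16.5%. The replicates' lists are shorter than the pooled one, with 1977 and 2210 peaks against 3184. No paired analysis was possible because there is only 1 group. Depth limits the text in that no read totals are given, so an absent peak says nothing of binding below the threshold.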
